A study of Mus musculus with 12 samples.

Results

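The inguinal fat pads of the wild-type (WT) mice served as the control group of this series, and they are described here as a profile of normal subcutaneous white adipose tissue (WAT). They make up 6 of the 12 arrays, and they were chosen by their labels alone. The other 6 arrays come from R6/2 mice, a transgenic model of Huntington's disease (HD) in which a fragment of human huntingtin, encoded by exon 1 and lengthened by many CAG repeats, is made. The WT mice were littermates without the transgene. All mice were males of 12 weeks on a C57BL/6 background, bred in 1 colony and given no treatment, and each mouse gave 1 array. RNA was read from the whole pad, so that fewer cells of a type and less RNA per cell cannot be told apart.

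White adipocytes store triglyceride in 1 large lipid droplet, build fatty acids from glucose or take them up from lipoproteins, and release them again by lipolysis. They also secrete hormones such as leptin, adiponectin and resistin. The inguinal pad is the main subcutaneous depot of the mouse, it holds a lymph node, it lies against muscle and skin, and it is a depot in which brown-like adipocytes with the uncoupling protein UCP1 can appear.

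Expression was read with the Affymetrix Mouse Gene 2.0 ST array, whose probe sets each combine short probes spread over a transcript. Signals are log2 values after robust multi-array average (RMA) normalization, and 1 unit of difference doubles the signal. Of 41345 probe sets, 23521 carried a single gene symbol, and they gave 22180 genes after probe sets of a gene were merged by the median. A level floor was set at 5.45, the median signal in WT mice of the probe sets without a symbol, and 14207 genes (64.1%) had a mean above it. The 1000 genes of highest mean, all at 9.42 or more, are called high-level genes. The 6 arrays had medians between 5.79 and 5.87 and maxima between 13.82 and 13.88, and any 2 of them correlated over all genes with r between 0.939 and 0.985. Over the high-level genes alone r lay between 0.564 and 0.960.

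WT mice 3 and 4 stood apart from the others. Mouse 3 was the lowest of the 6 in 530 of the 1000 high-level genes and the highest in 251, and mouse 4 was the highest in 324. The median over 23 genes of lymphocytes and lymph node was 5.504 in mouse 4, 10.08 in mouse 3 and between 7.58 and 9.41 in the other mice. The median over 24 genes of skeletal muscle was 9.16 in mouse 1 and 10.46 in mouse 5, and between 5.64 and 5.78 in mice 2, 3, 4 and 6. The main values of spread and the lists that moved most with these mice are also given without them.

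The label of the tissue was borne out by genes that define mature adipocytes. Of 15 such genes 13 were measured under a single symbol, and all 13 were high-level genes, at ranks between 8 (*Fabp4*) and 885 (*Lipe*) of 22180. Their median signal was 11.32, 11.57, 10.32, 11.61, 11.36 and 11.34 in WT mice 1 to 6. Mouse 3 was the lowest in all 13 genes and mouse 4 the highest in 10.

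The 30 genes of highest mean signal were led by the mitochondrial genome. *ND4*, a subunit of complex I, had the highest mean, 13.83 ± 0.04 (SD, n = 6), and it ranked first in every WT mouse. Together with *COX1*, *CYTB*, *ND1*, *ND5*, *ND3*, *ND4L*, *COX3* and *ND2* it made 9 of the 30 genes. These encode subunits of complexes I, III and IV of the respiratory chain, and their means lay between 13.24 and 13.83. The tenth mitochondrial gene measured, *ND6*, lay at rank 141 with values between 10.22 and 11.51 and a median of 11.17.

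Genes of fat storage made up 8 of the 30. *Scd1*, the desaturase that makes oleate and palmitoleate, was the nuclear protein-coding gene of highest signal, with values between 13.26 and 13.56 and a median of 13.50. *Fabp4*, the fatty acid carrier of adipocytes, followed with values between 13.29 and 13.51 and a median of 13.44. Both were among the first 10 genes in every mouse, and their ranges overlapped, so that their order is not separated from the spread.

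*Fasn*, fatty acid synthase, lay between 12.34 and 13.47 with a median of 13.28. *Cd36*, the fatty acid transporter, lay between 12.44 and 13.02 with a median of 12.84. *Me1*, the malic enzyme that supplies NADPH for fatty acid synthesis, had the widest spread of the 30 genes, between 11.03 and 13.06 with a median of 12.59. In all 3 genes mouse 3 was the lowest, and in *Me1* the next lowest was mouse 2 with 12.35. *Pnpla2*, the adipose triglyceride lipase, *Cidec*, which fuses lipid droplets, and *Pck1*, which supplies glycerol for esterification, had means of 12.43, 12.26 and 12.27.

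The remaining genes were of several kinds. *Retn*, the hormone resistin, was the only secreted hormone among them, at 12.66 ± 0.40 (SD, n = 6). *Rn7sk*, the 7SK RNA that holds the elongation factor P-TEFb inactive, lay at rank 4 with 13.61 ± 0.03 (SD, n = 6), and *Rpph1*, the RNA of RNase P, at rank 15 with 12.83. *B2m*, the light chain of MHC class I, *Cox6a1*, *Ctsb*, *Fth1*, *Ddx5*, *Gapdh*, *Ppp2r5a*, *Gsn*, *Serinc3* and *Itm2b* completed the list. Of the 30 genes, 29 were within the first 100 of every single mouse, and the lowest single rank was 127 for *Me1*. The last gene inside was *Itm2b* at 12.23 and the first outside was *Rpl21* at 12.21, a gap smaller than the SD of either.

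**Figure D1:**
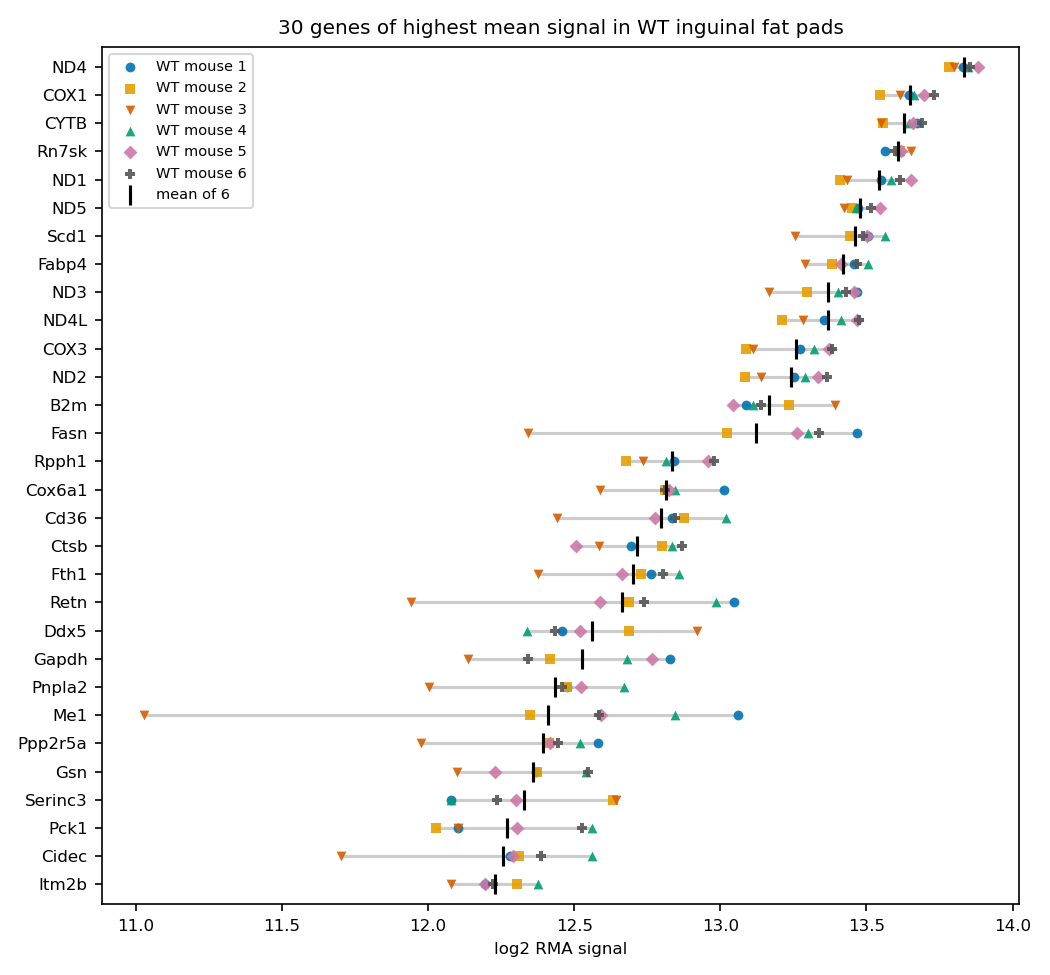
Log2 RMA signal of the 30 genes of highest mean in the WT pads, 1 point per mouse, with the mean of 6 as a black tick and a grey line over the range. Mitochondrial genes such as *ND4* (13.83) lie at the top with narrow ranges, and the wide ranges of *Fasn*, *Retn* and *Me1* have their low end in mouse 3, at 12.34, 11.94 and 11.03.

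This order is one of signal and not of transcript number, because probe sets differ in how strongly they bind. For the 1082 genes with more than 1 probe set, the gap between the highest and the lowest had a median of 1.64. Where the highest reached the level of the high-level genes (151 genes) the median gap was 3.46, and it exceeded 2 in 125 of them. *Eif4a1*, for example, was read at 8.05 by one probe set and 13.61 by the other. The spread between mice also differed between probe sets of 1 gene, as *Gapdh* had SDs of 0.25, 0.27 and 0.58 in its 3 probe sets.

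Gene classes differed widely in their level. Protein-coding genes (18964) had a median of 6.40 and supplied 935 of the high-level genes. Small nucleolar RNAs, which guide the modification of ribosomal RNA, had a median of 8.83 over 80 genes, and 29 of them (36.3%) were at high level, against 4.51% of all genes. *Snord22* was the highest of them, at 12.18 ± 0.34 (SD, n = 6). Long non-coding RNAs had a median of 5.00 over 1926 genes, below the floor, and *Malat1* (11.39), *Neat1* (10.17), *Norad* (9.94), *Lncpint* (9.70) and *Tug1* (9.48) were the only 5 at high level. Olfactory receptor genes, which are read in the nose, had a median of 3.46 over 1105 genes and 0 at high level, and vomeronasal receptor genes a median of 3.10 over 289 genes. The median of either receptor class lay far below the floor.

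Genes of microRNAs had a median of 4.77 over 478 genes, and 5 were at high level: *Mir5099* (12.13), *Mir449b* (11.95), *Mir692-1* (10.76), *Mir703* (10.59) and *Mir1195* (9.89). The probe sets read RNA over the gene and do not separate the mature microRNA from longer transcripts. The mature sequences of 3 of them, from RefSeq on build GRCm38.p6, are shown because they belong to the few microRNA genes at high level. The seed (bases 2 to 8), which pairs with targets, is in capitals, and no 2 of the seeds are alike.
mmu-miR-692, chr17:6895259-6895279, minus strand: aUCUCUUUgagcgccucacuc
mmu-miR-703, chr5:98475616-98475636, minus strand: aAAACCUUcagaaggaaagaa
mmu-miR-1195, chr17:70860558-70860580, minus strand: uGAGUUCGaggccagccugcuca

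Synthesis of fatty acids and triglyceride stood near the top of the lists of nuclear genes. The median gene of 32 lay at 10.43, the 98.7th percentile of all genes, and 23 of 32 were high-level genes. *Acly*, which makes cytosolic acetyl-CoA, had values between 10.67 and 12.94 and a median of 12.41. *Acaca*, the acetyl-CoA carboxylase of the cytosol, had values between 10.42 and 12.39 and a median of 12.01. *Elovl6*, which elongates palmitate, had values between 10.51 and 12.65 and a median of 11.94. In these 3 genes mouse 1 was the highest and mouse 3 the lowest, and the same held for most of the list, with mouse 1 highest in 25 of 32 genes and mouse 3 lowest in 28.

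*Dgat2*, which adds the last fatty acid to triglyceride, lay at 12.00 ± 0.47 (SD, n = 6), and *Dgat1*, which does the same reaction, at 9.49 ± 0.60 (SD, n = 6). Of the transcription factors of the programme, *Mlxipl* (ChREBP) lay at 9.37 ± 0.74 and *Srebf1* at 9.02 ± 0.46 (SD, n = 6 each). *Mogat1*, a monoacylglycerol acyltransferase, was the lowest member at 6.79. The list medians of WT mice 1 to 6 were 11.01, 10.45, 9.36, 10.73, 10.41 and 10.43. Mouse 3 lay more than 1 log2 unit below every other mouse, and the SD of the list median, 0.56 with all mice, was 0.26 without it.

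The lipid droplet and lipolysis stood at a like level. The median gene of 23 lay at 10.50 and 15 of 23 were high-level genes. The list median averaged 10.43 over the 6 mice, against 10.40 for fat synthesis, and without mouse 3 it was 10.56, against 10.61, so that the order of these lists turned with 1 mouse. *Plin4* and *Plin1*, which coat the droplet, lay at 11.65 ± 0.25 and 10.76 ± 0.35 (SD, n = 6 each). *Pnpla2*, *Lipe* and *Mgll*, the lipases that act in turn on triglyceride, diglyceride and monoglyceride, lay at 12.43 ± 0.23, 9.52 ± 0.23 and 10.14 ± 0.25 (SD, n = 6 each). *G0s2*, an inhibitor of *Pnpla2*, lay at 7.72 ± 0.23 and *Hilpda*, another inhibitor of the same lipase, at 6.79 ± 0.11 (SD, n = 6 each). Mouse 4 was the highest in 16 of the 23 genes and mouse 3 the lowest in 20, and the SD of the list median was 0.43 with all mice and 0.34 without mouse 3.

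For uptake of fatty acids, the median gene of 14 lay at 8.86, with *Fabp4* and *Cd36* far above it. *Lpl*, the lipase that frees fatty acids from lipoproteins, lay between 10.25 and 11.61 with a median of 11.33. For insulin action, *Trarg1*, which regulates traffic of the glucose transporter GLUT4, lay at 11.64 ± 0.22 (SD, n = 6), and *Slc2a4*, which encodes GLUT4, between 8.11 and 10.05 with a median of 9.53. *Slc2a1*, which encodes the widespread transporter GLUT1, lay at 6.76 ± 0.20 (SD, n = 6). Mouse 3 was the lowest mouse in *Lpl* and in *Slc2a4*.

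Of 21 genes of adipokines and other secreted factors, 8 were at high level. *Lep* lay between 10.23 in mouse 3 and 11.57 in mouse 2 with a median of 10.75, and *Adipoq* between 10.32 in mouse 3 and 10.97 in mouse 4 with a median of 10.73. *Hp*, which encodes haptoglobin, ranked 100 with values between 10.53 and 12.24 and a median of 11.31. *Rbp4*, which carries retinol, lay between 8.57 and 10.53 with a median of 9.86. Neighbours in this order, such as *Lep* and *Adipoq*, overlapped in their ranges. *Fgf21*, a hormone mainly of liver, lay at 5.64, just above the floor, and *Itln1* at 4.49, below it.

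Among 26 factors of adipocyte differentiation, *Pparg*, the master regulator of the adipocyte, lay between 9.75 and 10.94 with a median of 10.80. *Cebpa*, its partner in mature cells, lay between 9.32 and 10.59 with a median of 10.39. *Ebf1*, which acts with both, lay between 10.37 and 10.82 with a median of 10.56. *Cebpd* and *Klf5*, which act early in differentiation, were the lowest of the list at 6.06 ± 0.29 and 5.99 ± 0.17 (SD, n = 6 each).

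Genes of mitochondrial metabolism formed the next group. The tricarboxylic acid (TCA) cycle with pyruvate dehydrogenase had 16 of 22 genes at high level and a median of 10.15, with *Cs*, citrate synthase, at 11.35 ± 0.33 (SD, n = 6). Fatty acid oxidation had 14 of 25 at high level and a median of 9.75, and *Hadh* and *Acadm*, enzymes of beta-oxidation, lay at 11.78 ± 0.31 and 11.61 ± 0.24 (SD, n = 6 each). The nuclear-encoded respiratory chain had 24 of 69 at high level and a median of 8.83, against 13.42 for the 10 mitochondrial genes. Its members ranged between *Cox6a1*, a subunit of complex IV, at 12.82 and *Atp5j2* at 5.58. Mouse 1 was the highest in 20 of 22 TCA genes and 56 of 69 respiratory chain genes, and mouse 3 the lowest in 21 and 57. Without mouse 3 the SD of the TCA list median was 0.35, against 0.45 with all mice.

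Some genes of heat production varied widely between mice, while the median of their list varied less than that of the TCA list (SD 0.23, against 0.45). *Ucp1* had values of 11.62, 8.70, 8.80, 10.06, 10.88 and 9.78 in WT mice 1 to 6, a span of 7.55 times. *Cox7a1*, a subunit of complex IV found in brown fat and muscle, had 9.67, 7.19, 7.55, 8.53, 9.58 and 8.67, and *Elovl3*, an elongase of brown fat, 8.72, 5.65, 4.51, 7.21, 8.07 and 7.21. In all 3 genes mice 1 and 5 were the highest and mice 2 and 3 the lowest. Mice 1 and 5 were also the mice with signal of muscle genes (9.16 and 10.46 in the list median), and the part of muscle in these values was not tested. *Cidea*, which is found on droplets of brown and of mouse white adipocytes, lay between 10.02 and 11.64 with a median of 11.20. *Prdm16*, which drives the brown lineage, lay at 6.08 ± 0.23 (SD, n = 6), and *Dio2*, which activates thyroid hormone in brown fat, at 4.99, below the floor. The median gene of the 26 lay at 6.85, and 3 were at high level.

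Genes for translation and the care of proteins lay at similar levels. Translation factors had a median gene of 9.31 over 31 genes, chaperones 9.09 over 27 and the proteasome 9.04 over 30. The SD of the list median over the 6 mice was 0.07 for translation factors, 0.15 for chaperones and 0.22 for the proteasome, against 0.56 for fat synthesis. Mouse 3 was the lowest in 26 of 30 proteasome genes, and mouse 4 the highest in 16 of 27 chaperone genes. *Eef2*, the factor of ribosome translocation, lay at 11.92 ± 0.20 (SD, n = 6).

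Ribosomal proteins, most of which occur once per ribosome, ranged between 5.21 (*Rpl27a*) and 12.21 (*Rpl21*) over 60 genes. Their median was 7.72, 15 of 60 were at high level, and *Rpl27a*, *Rps15* and *Rps16* lay below the floor. Many of these genes have processed copies elsewhere in the genome, and probes that also match a copy cannot assign the signal, so that single members are uncertain. Within a gene the mice still lined up, with mouse 3 the highest in 41 of the 60 genes and mouse 4 the lowest in 21. Mouse 3 was also the highest in 29 of 38 genes of RNA processing.

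Cells other than adipocytes were read in the same pads. Matrix genes had a median of 8.60 over 43 genes. *Dpt*, which binds collagen fibrils, lay between 11.69 and 12.43 with a median of 12.04, and *Dcn*, the proteoglycan decorin, between 11.05 and 11.79 with a median of 11.32. *Col3a1*, a fibrillar collagen, lay between 10.20 and 11.85 with a median of 10.84. Mouse 4 was the highest in 16 of 17 collagen genes and 31 of 43 matrix genes, and mouse 3 the lowest in 14 and 29. The SD of the list median was 0.48 for collagens and 0.46 for matrix genes with all mice, and 0.21 and 0.23 without mice 3 and 4. Endothelial genes had a median of 7.92 over 22 genes, led by *Cdh5*, the cadherin of vessel walls, at 10.62 ± 0.16 (SD, n = 6), while *Prox1*, which defines lymphatic vessels, lay at 5.47, at the floor. Markers of adipocyte progenitors had a median of 8.01 over 18 genes, with *Pdgfra*, highest in mouse 4, at 9.01 ± 0.41 (SD, n = 6). Their genes did not go together between mice. Mouse 4 was the highest in 9 of the 18 and the lowest in 3, and mouse 3 the highest in 4 and the lowest in 8. *Dpp4*, *Cd55* and *Icam1* were the highest in mouse 3 and the lowest in mouse 4, like most lymphocyte genes.

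Macrophage genes had a median of 7.83 over 26 genes. *Lyz2*, a lysozyme, lay between 10.44 and 11.56 with a median of 11.38. The highest was mouse 4 in 9, mouse 3 in 8 and mouse 2 in 5 of the 26 genes, while mouse 1 was the highest in 0 and the lowest in 12. Lymphocyte genes went with mice 3 and 4, with mouse 3 the highest in 21 of 23 and mouse 4 the lowest in all 23. *Ms4a1*, which encodes CD20 of B cells, had 8.88, 10.18, 10.77, 4.24, 10.15 and 9.30 in WT mice 1 to 6, so that only mouse 4 lay below the floor. The SD of the lymphocyte list median was 1.64 with all mice and 0.95 without mouse 4. Among muscle genes mouse 5 was the highest in 19 of 24. *Acta1*, the actin of skeletal muscle, had 11.11, 7.87, 6.67, 7.89, 12.60 and 6.72.

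The median gene of other cell types was at or near the floor. The list medians were 5.27 for epithelium over 16 genes, 5.32 for mast cells and granulocytes over 16, 5.77 for nerve and Schwann cells over 13 and 5.30 for genes defining liver, brain, pancreas and other organs over 25. *Epcam*, which defines epithelium, lay at 4.20 and *Gfap*, of glial cells, at 5.55. Of the epithelial genes 6 of 16 were above the floor, the highest being *Krt8*, a keratin of simple epithelia, at 6.61. Among mast cell and granulocyte genes 7 of 16 were above it, led by *Kit* at 7.53 and *Cpa3* at 7.11, and *Fcer1a* was the lowest at 3.04. *Alb*, albumin of the liver, was the highest of the organ genes at 8.56 ± 0.69 (SD, n = 6), and *Pmp22*, a myelin protein that other cells also make, the highest of the nerve list at 9.53. Of the erythroid genes 1 was measured under a single symbol (*Slc4a1*, 5.36).

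**Figure D2:**
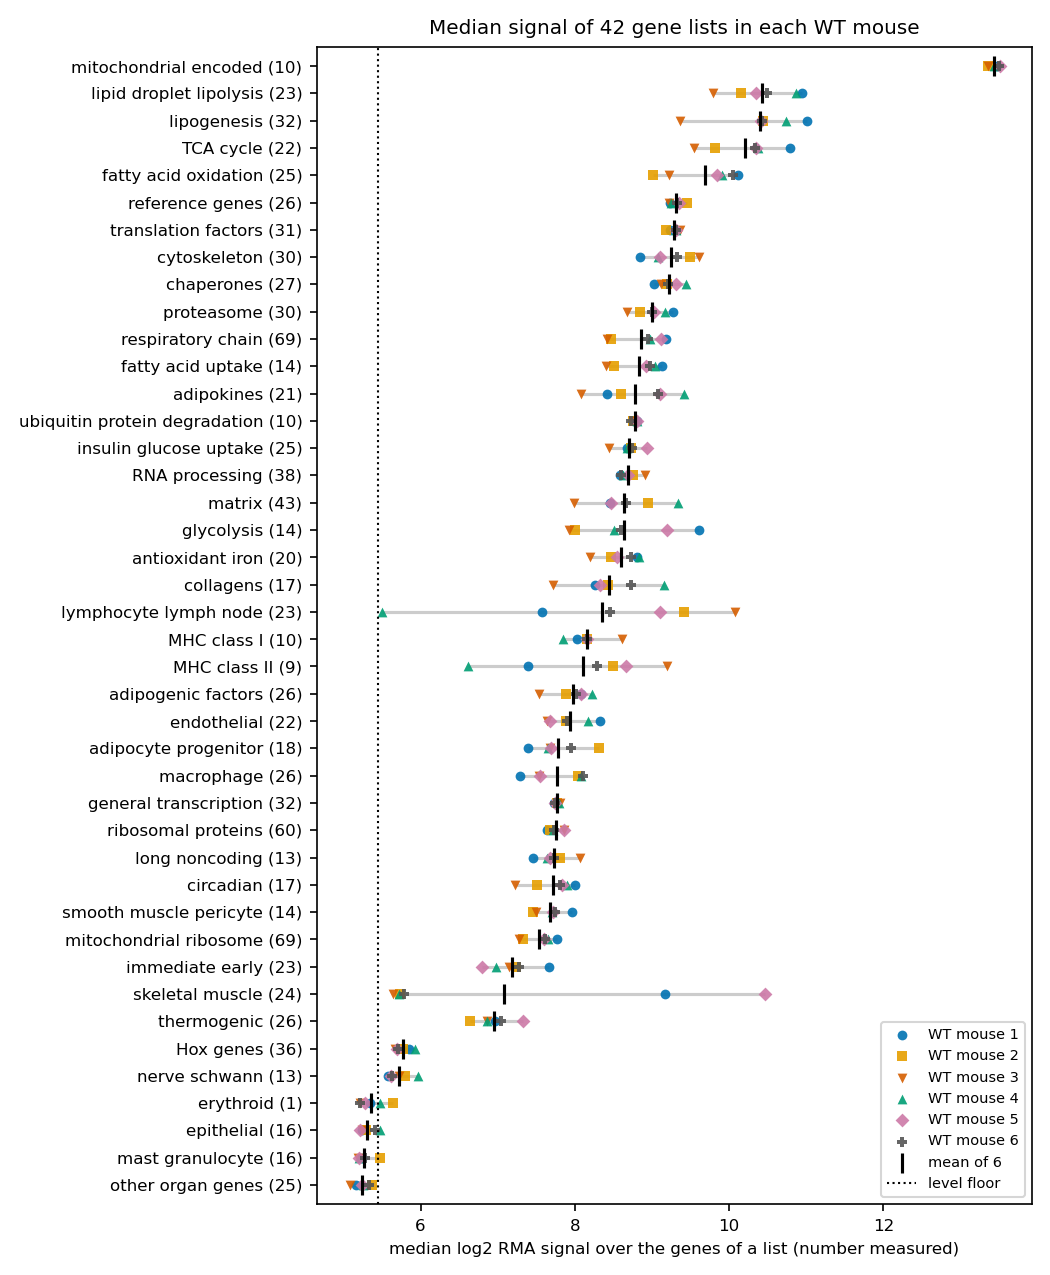
Median log2 RMA signal over the genes of each of 42 lists (number of genes measured in brackets) in each WT mouse, with the mean of 6 as a tick and the level floor of 5.45 dotted. The mitochondrial genome, the lipid droplet, fat synthesis and the TCA cycle lie farthest to the right. The mean signal of the median gene in these lists, which is not drawn, was 13.42, 10.50, 10.43 and 10.15. The widest lines belong to lymphocyte genes (5.504 to 10.08) and muscle genes (5.64 to 10.46).

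The spread between WT mice did not fall with the level. The median SD was 0.25 for the 100 genes of highest mean, 0.24 for the other 900 high-level genes and 0.20 for the genes from rank 2001 on. For the high-level genes the SD had a median of 0.244, with quartiles of 0.145 and 0.364, and the extremes were 0.0211 (*Rsl1d1*) and 2.04 (*Cd79a*). An SD from 6 mice is itself imprecise, with a 95% interval between 0.624 and 2.45 times its value under a normal distribution. Without mouse 3 the median SD of the high-level genes was 0.179, and without mice 3 and 4 it was 0.169, a setting added after the values were seen. RMA makes the distribution of signals alike on all arrays, and its part in the low spread of the very highest genes was not tested.

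The 30 high-level genes of smallest SD had various functions. *Rsl1d1*, a nucleolar protein of ribosome formation, had 9.50, 9.48, 9.46, 9.51, 9.48 and 9.47 in WT mice 1 to 6, a span of 1.04 times. *Arf1*, a small GTPase of the Golgi, had 9.62, 9.59, 9.57, 9.64, 9.58 and 9.63. The single probe sets of *Arf1* and *Eif4a1* had larger SDs than the merged values, with SDs of 0.0635 and 0.0391 for *Arf1* (0.0279 merged) and 0.0692 and 0.0864 for *Eif4a1* (0.0345 merged). *Eif4a1* thus entered the 30 through the merging of its probe sets. *Rn7sk* likewise had SDs of 0.0608 and 0.0351 in its single probe sets (0.0288 merged). The first of these lies above the largest merged SD of the 30, 0.056. The widest range between the highest and lowest mouse in any of the 30 genes was 0.16 (*Dnm1l*). *Eif4a1*, *Eif3c*, *Naca* and *Sars* serve translation, *Snrpd3*, *Hnrnpl* and *Hnrnpab* bind RNA in splicing and transport, and *Rn7sk*, *Aff4* and *Supt6* act in transcription elongation.

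Others regulate proteins and traffic, such as *Csnk1a1*, a casein kinase, *Huwe1*, a ubiquitin ligase, *Cct8*, a subunit of the chaperonin, *Gdi2*, which recycles Rab proteins, and *Dync1h1*, the dynein heavy chain. *Nfe2l2* (NRF2) and *Nr3c1*, the glucocorticoid receptor, were the transcription factors among them, at 9.63 ± 0.05 and 9.59 ± 0.05 (SD, n = 6 each). *ND4* and *ND5* were both in this set and among the 10 genes of highest signal. The set also held *Tcf25*, *Ik*, *Dpp8*, *Ifnar2*, *Ccni*, *Ankrd17*, *Pi4ka*, *Mir1195* and *Dnm1l*. The last gene inside, *Dnm1l*, had an SD of 0.0560 and the first outside, *Sptan1*, 0.0565, so that the border has no meaning of its own. On leaving out each mouse in turn, 22 to 25 of the 30 were again among the 30 of smallest SD, and all 30 were among the lowest 100. Without mice 3 and 4 together 14 were shared, and all 30 were again among the lowest 100. The 30 were chosen by their SD in these same arrays, and leaving out mice can raise so small an SD only little. Their place among the lowest 100 is therefore no independent check.

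**Figure D3:**
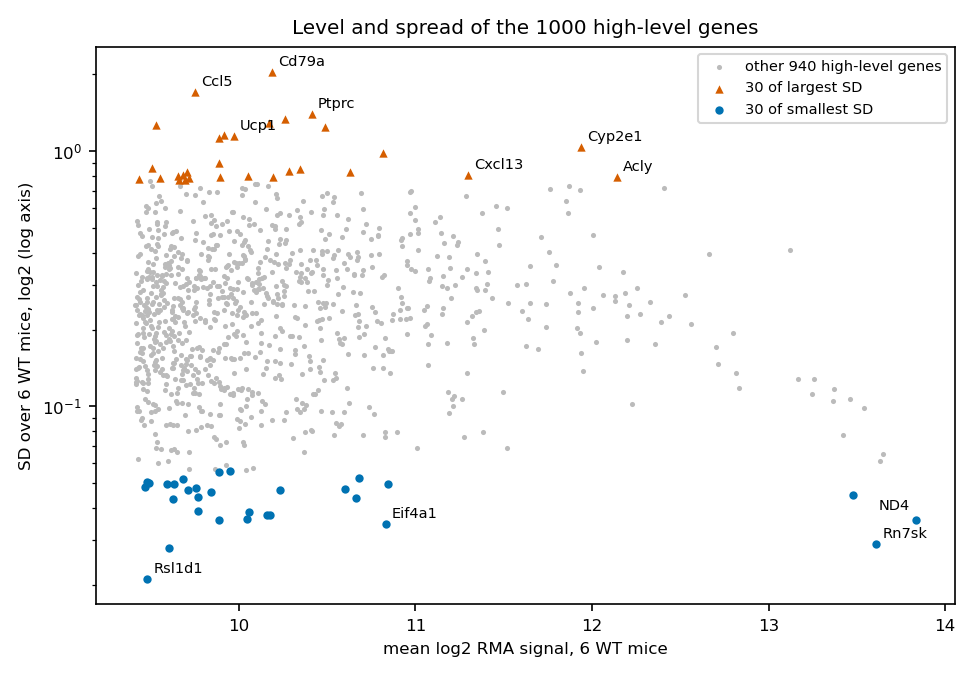
Mean log2 RMA signal over the 6 WT mice against the SD (log axis) for the 1000 high-level genes, with the 30 of largest SD as triangles and the 30 of smallest SD as blue points. The 30 even genes lie below an SD of 0.0565 at levels between 9.47 and 13.83, and the variable genes reach 2.04 in *Cd79a*.

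Promoter sequence was not used in choosing these genes. Promoter windows from RefSeq, 250 bases before to 50 after the start, were matched for 23 of the 30 genes and gave 26 windows. All 26 held at least 10 CpG dinucleotides, with a median of 24, against 81.8% and a median of 23 for 931 windows of the high-level genes, and 43.5% and 7 for all 32851 windows. The motif CCGCCC, counted on both strands, was in 80.8% of the 26 windows, 65.7% of those of the high-level genes and 35.7% of all. Of 29 windows of the 22 matched most variable genes, 55.2% held at least 10 CpG and 20.7% the motif TATAAA, which was in 7.69% of the windows of the even genes, 9.99% of those of the high-level genes and 13.6% of all. For the lymphocyte list 5.88% of 17 windows held at least 10 CpG. High CpG counts were thus common to high-level genes in general, and the even genes were chosen among these.

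The windows of the 2 genes of smallest SD, of the most variable gene and of the variable gene of highest signal are shown on build GRCm38.p6 with every CpG in capitals. *Rsl1d1* and *Arf1* held 22 and 38 CpG, and *Cd79a* and *Acly* 8 and 18. The windows of variable genes differed widely in this, with 4 CpG in that of *Cyp2e1* and 26 in that of *Trp53i11*. A match describes these letters and no binding.
Rsl1d1, chr16:11203243-11203542, minus strand: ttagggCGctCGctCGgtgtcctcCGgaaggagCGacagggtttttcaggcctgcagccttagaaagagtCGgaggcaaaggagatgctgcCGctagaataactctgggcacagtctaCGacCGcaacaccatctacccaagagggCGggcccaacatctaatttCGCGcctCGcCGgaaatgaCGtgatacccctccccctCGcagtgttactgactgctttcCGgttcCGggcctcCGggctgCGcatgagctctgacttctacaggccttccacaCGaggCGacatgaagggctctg
Arf1, chr11:59228218-59228517, minus strand: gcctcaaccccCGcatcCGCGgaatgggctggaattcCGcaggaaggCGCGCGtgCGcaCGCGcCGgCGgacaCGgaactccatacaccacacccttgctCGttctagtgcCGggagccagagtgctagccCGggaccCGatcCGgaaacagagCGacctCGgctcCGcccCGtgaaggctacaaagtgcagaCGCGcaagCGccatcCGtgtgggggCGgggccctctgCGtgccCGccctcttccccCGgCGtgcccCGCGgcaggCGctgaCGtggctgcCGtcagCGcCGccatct
Cd79a, chr7:24897247-24897546, plus strand: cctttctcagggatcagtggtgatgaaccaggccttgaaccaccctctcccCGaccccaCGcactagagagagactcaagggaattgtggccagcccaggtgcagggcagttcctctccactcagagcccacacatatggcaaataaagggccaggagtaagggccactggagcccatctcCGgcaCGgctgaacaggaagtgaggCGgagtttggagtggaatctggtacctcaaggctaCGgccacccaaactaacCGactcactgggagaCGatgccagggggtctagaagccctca
Acly, chr11:100527951-100528250, minus strand: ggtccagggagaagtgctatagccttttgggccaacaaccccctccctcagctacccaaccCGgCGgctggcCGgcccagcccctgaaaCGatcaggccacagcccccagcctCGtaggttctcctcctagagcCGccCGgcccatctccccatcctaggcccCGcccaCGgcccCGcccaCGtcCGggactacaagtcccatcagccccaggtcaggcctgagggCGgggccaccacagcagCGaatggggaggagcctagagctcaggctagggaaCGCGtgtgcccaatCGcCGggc

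Genes that are often used as references covered a wide range of spread. Of 35 such genes 26 were measured under a single symbol, and 12 of them were high-level genes with SDs between 0.107 (*Canx*) and 0.423 (*Pgk1*). Of the 12, 6 had an SD below the median of the high-level genes and 3 lay below the lower quartile. In the R6/2 mice *Canx*, a chaperone of the endoplasmic reticulum, had an SD of 0.0437, below the R6/2 median of the 30 even genes (0.0724). *Actb* had 10.12, 10.80, 11.10, 10.05, 10.34 and 10.59 in WT mice 1 to 6, a span of 2.07 times, and *Gapdh* 12.83, 12.42, 12.14, 12.68, 12.77 and 12.34, a span of 1.61 times. Mouse 3 was the highest in *Actb* and the lowest in *Gapdh*, so that the ratio of the 2 genes differed between mice. Both genes have near-identical copies in the genome.

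*B2m* was more even, between 13.04 and 13.39 with a median of 13.13. *Ppib*, a cyclophilin of the endoplasmic reticulum that ranked 1012, just outside the high-level genes, lay between 9.29 and 9.48 with a median of 9.43 and a span of 1.14 times. *Ipo8*, a nuclear import factor, spanned 1.16 times at 8.47. *Gusb* and *Tbp*, which encode a lysosomal glucuronidase and the TATA-binding protein, spanned 1.41 and 1.43 times at 8.84 ± 0.21 and 8.08 ± 0.19 (SD, n = 6 each).

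The 30 high-level genes of largest SD fell into groups that went with single mice. *Cd79a*, a chain of the B cell receptor complex, had 10.14, 11.33, 11.98, 6.24, 10.94 and 10.51 in WT mice 1 to 6, and *Ptprc* (CD45), found on all leukocytes, 9.63, 11.35, 11.83, 8.002, 11.00 and 10.67. *Ccl5*, a chemokine of T cells, had 9.39, 11.47, 11.45, 6.83, 9.75 and 9.64. Mouse 4 was the lowest in all 3 genes and mice 2 and 3 the highest. *Rac2*, *H2-Ea*, *Ptpn6*, *Dgka*, *Cd53*, *Cd37*, *H2-Ab1*, *Stk17b*, *Lcp1*, *Cxcl13*, *Dock10*, *Lbh*, *Trp53i11* and *9930111J21Rik2* were also the lowest in mouse 4. Without mouse 4 the SD of *Cd79a* was 0.72, against 2.04 with all mice.

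A second group was low in mouse 3. *Cyp2e1*, a cytochrome P450, had 12.07, 12.22, 9.90, 12.78, 12.55 and 12.11, and its SD of 1.03 was 0.31 without mouse 3. *Acly*, *Acss2* and *Pcx*, which supply acetyl-CoA and oxaloacetate, *Gys2* and *Pygl*, which build and break down glycogen, *Ptger3*, a receptor of prostaglandin E2, *Reep6* and *Acacb* were also the lowest in mouse 3. Over the 30 genes mouse 4 was the lowest in 17 and mouse 3 in 10, *Rnu3a* included. Without mouse 4, 19 of the 30 were again among the 30 of largest SD, without mouse 3 it was 20, and without both 14. *Ucp1* and *Snora75* were the lowest in mouse 2, and *Mt2*, a metallothionein, in mouse 5. *Rnu3a*, a U3 small nucleolar RNA that the annotation lists as snRNA, lay between 8.92 and 8.997 in mice 1 to 3 and between 10.20 and 10.76 in mice 4 to 6.

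**Figure D4:**
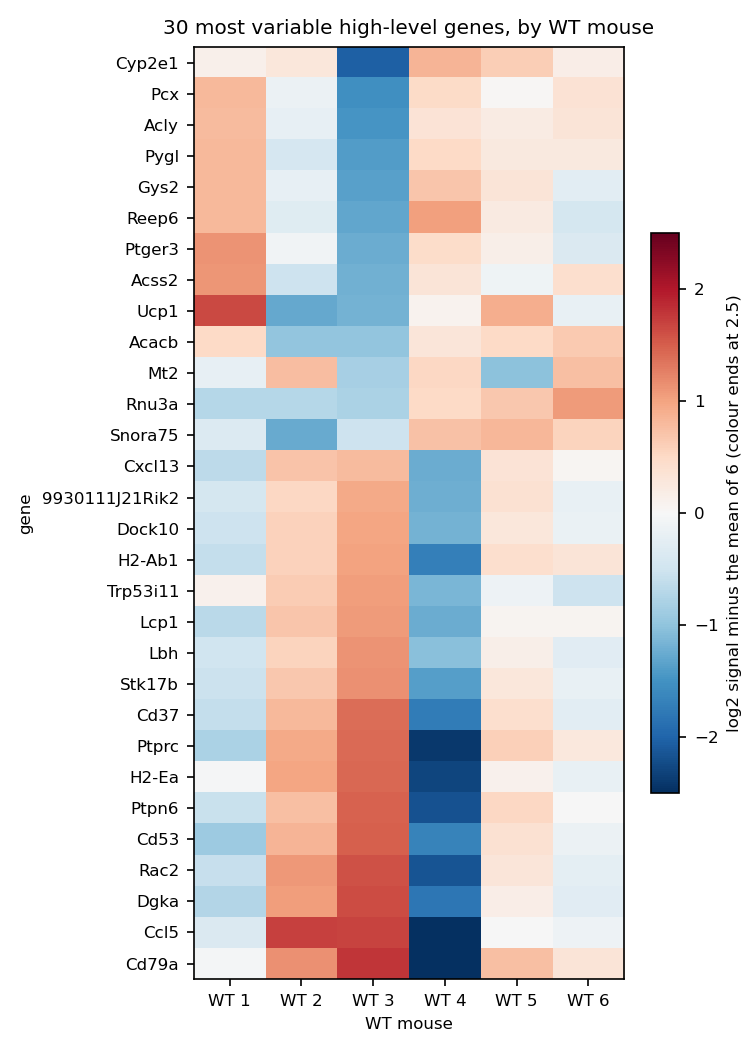
Log2 RMA signal of the 30 most variable high-level genes minus the mean of the 6 WT mice, 1 column per mouse, with genes ordered by mouse 3. Leukocyte genes in the lower rows are high in mouse 3 and low in mouse 4, genes of lipid and glycogen metabolism in the upper rows are low in mouse 3, and *Rnu3a* is low in mice 1 to 3.

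Compared with the R6/2 arrays, the order of the WT pads was largely shared. Of the 30 leading genes of the WT pads, 25 were among the 30 leading genes of the R6/2 pads, and for 100 and 1000 genes the number was 83 (83.0%) and 919 (91.9%). *Gsn*, *Serinc3*, *Pck1*, *Cidec* and *Itm2b* left the 30, in which their R6/2 ranks were 40 or better, and *Acly*, *Atp5b*, *Elovl6*, *Slc25a1* and *Cat* entered. Within the first 100 genes the largest shift was that of *Hp*, at rank 1349 in R6/2 pads and 100 in WT pads. Its values lay between 8.70 and 9.64 in R6/2 mice, and between 10.53 and 12.24 in WT mice, without overlap. *Mt2* shifted most among the 1000, with rank 2602 in R6/2 and 464 in WT pads.

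In limma over 14453 genes, 0 (0%) passed an adjusted p of 0.05 between R6/2 and WT mice, and 842 (5.83%) had an unadjusted p under 0.05. SAM, run here on the same genes without a fold limit, called 59 (0.408%), 47 lower and 12 higher in R6/2. The study also used SAM, but with its own probe set filter and a fold limit, so that the 59 are not its count. Of the 30 leading genes 1 had an unadjusted p under 0.05 (*Ctsb*, lower in R6/2), of the 30 even genes 3 (*Naca*, *Nr3c1* and *Pi4ka*, higher in R6/2) and of the 30 variable genes 2 (*Mt2* and *Rnu3a*, lower in R6/2). Over the 1000 high-level genes it was 85 (8.5%), 26 of them higher (2.54% of all genes were) and 59 lower (3.29% of all genes were), and SAM called 11. Without R6/2 mouse 4 limma called 23 genes, and without WT mouse 1 or WT mouse 3 it called 1. The counts at an unadjusted p under 0.05 among the 1000 were 34 higher and 119 lower without R6/2 mouse 4, 12 and 40 without R6/2 mouse 6 and 16 and 39 without WT mouse 4. Over all genes tested these counts were 526 higher and 909 lower without R6/2 mouse 4, 281 and 293 without R6/2 mouse 6 and 314 and 311 without WT mouse 4. The count among the 30 even genes lay between 1 and 4 on leaving out each mouse. For the 30 even genes the differences lay between -0.10 and 0.20 on the log2 scale. *Nr3c1* lay between 9.74 and 9.84 in R6/2 mice and between 9.50 and 9.64 in WT mice, without overlap. The ranges of *Naca* and of *Pi4ka* overlapped between the genotypes. *Naca*, for example, had a mean of 10.80 in R6/2 and 10.67 in WT mice, 0.14 apart with a standard error of 0.06 (limma, Benjamini-Hochberg adjusted p = 0.826). *Rnu3a* had a mean of 8.62 in R6/2 and 9.71 in WT mice, with a log2 change of -1.09 and a standard error of 0.33 (limma, Benjamini-Hochberg adjusted p = 0.636).

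Among the lists, collagens had 10 of 17 genes lower in R6/2 mice at an unadjusted p under 0.05 and 0 higher. Over all genes tested 3.29% were lower and 2.54% higher. The median difference of the collagens was -0.51, against 0.01 over all genes tested. WT mouse 4 was the highest WT mouse in 16 of these 17 genes, and without it 6 were lower and the median was -0.38. Without WT mouse 6 or R6/2 mouse 6 the count was also 6. Macrophage genes had 8 of 26 lower and 0 higher with a median of -0.48. Their count was 13 without WT mouse 1 or R6/2 mouse 2, and 5 without R6/2 mouse 1. Of the fat synthesis list 0 of 32 and of ribosomal proteins 0 of 57 had an unadjusted p under 0.05, and on leaving out each mouse at most 2 and 3 did. None of the genes of these lists passed the adjusted p in limma.

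The R6/2 arrays, which were not used to choose the even genes, gave a check of their spread. The SD over the 6 R6/2 mice had a median of 0.0724 in the 30 genes (0.0276 to 0.177), against 0.251 in the 1000 high-level genes. All 30 lay below that median, 27 below the lower quartile, and 11 were also among the 30 of smallest SD in R6/2 mice. The 30 variable genes all lay above it, at 0.285 to 2.70, and 19 were among the 30 of largest SD in R6/2 mice. Over the 1000 genes the SDs of the genotypes had a Spearman correlation of 0.799, across genes, which are not independent replicates and share probes and a joint normalization in both genotypes. *Rsl1d1*, the most even gene in WT mice, lay between 9.29 and 9.58 in R6/2 mice and between 9.46 and 9.51 in WT mice, with SDs of 0.11 in R6/2 and 0.02 in WT mice.

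**Figure D5:**
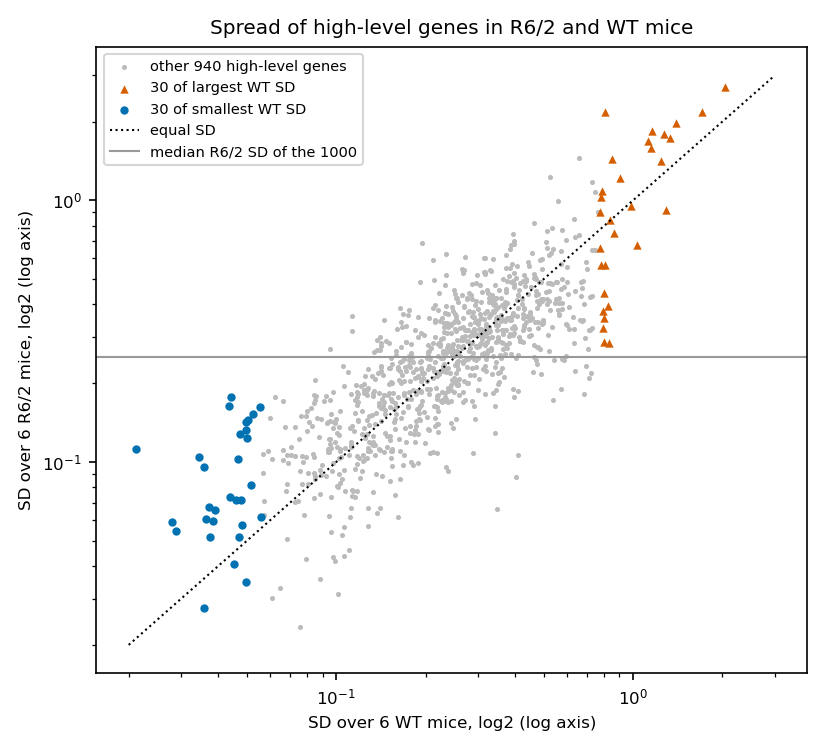
SD of log2 signal over 6 R6/2 mice against the SD over 6 WT mice for the 1000 high-level genes (both axes logarithmic), with the line of equal SD dotted and the median R6/2 SD of the 1000 genes, 0.251, as a grey line. The 30 genes of smallest WT SD all lie under the grey line, and the 30 of largest WT SD all lie above it.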

How the data were processed

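RNA of 12 inguinal pads that passed a limit of RNA integrity was read on Affymetrix Mouse Gene 2.0 ST arrays. The authors deposited log2 signals, 1 per probe set, which they had obtained by RMA over all 12 arrays (Expression Console 1.1.2, per the submitters' processing notes). The genome build is not given in the sources used here. Depth does not apply to arrays, and their number limits the precision.

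Probe sets were named through the platform's annotation (23521 with 1 symbol, 1820 with several and 16004 without, the last 2 left out of the ranking), and 21994 of 22180 genes had an identifier in the RefSeq table. Genes were merged by the median. Means, SDs and ranks used the 6 WT arrays without a test. No 2 arrays were identical. R6/2 minus WT was fitted with limma 3.58.1 (lmFit and eBayes, R 4.3.3) without covariates, over genes with a mean above 5.45 in WT or 5.44 in R6/2 mice, with Benjamini-Hochberg adjustment over all of them. SAM used all 924 assignments of 12 mice to 2 groups of 6 and a q of 5%. Both were tested on simulated data. Nothing says which mice shared a litter, or whether equal replicate numbers mark a pair.

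The rule for naming covered the 30 genes of highest mean and the 30 of smallest and of largest SD among the 1000. It also covered the leading and lowest members of each list, and the members of 5 lists on adipocytes and reference genes. Not all of these list members are named in the text. *Lncpint*, *Norad*, *Snord22*, the microRNA genes and some members named from further lists fall outside this rule and were picked with their values known, as were the printed promoters. The members and lists were chosen with earlier results of these data known. Alternatives covered the merging of probe sets, normalization, floor, measure of spread, number of high-level genes, test and leaving out each mouse. Genes measured only by probe sets with several symbols, such as *Cfd* and *Acsl1*, were not analysed here.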

Additional observations from a re-analysis of the deposited data

Results flagged for a closer look

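In the WT pads 9 of 129 named genes and list medians examined had 1 mouse apart from the other 5, by a gap that was large against the whole range (Dixon's test). Chance flags about 1 in 20 groups that are independent and were not chosen by their spread. Many of the genes examined were chosen by their spread in these same arrays, and many genes and lists moved together. The count of 9 can therefore not be set against that rate. Of the 9, 7 were mouse 3. Mouse 3 was low in *Me1* (11.03), *Pnpla2* (12.00), *Ppp2r5a* (11.98), *Cidec* (11.70) and *Cyp2e1* (9.90) and in the median of the fat synthesis list (9.36), and high in *Supt6* (9.56), where the other mice lay between 9.43 and 9.48. Mouse 4 was low in *Cd79a* (6.24). Mouse 2 was high in the median of the mast cell and granulocyte list (5.47), which lies at the floor. In the same arrays mouse 3 had the highest lymphocyte median (10.08) and mouse 4 the lowest (5.504). The part of the lymph node in these values was not tested.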

How the results depend on the processing

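With the floor at the 75th percentile of probe sets without a symbol, 9016 genes lay above it, against 14207. Of 696 means of named genes under 8 alternatives, 693 moved by less than the SD between mice, and of 378 list medians 352 did so. Most of these alternatives left out 1 mouse, which cannot move a mean by as much as that SD. These counts are therefore no measure of robustness. The exceptions among named genes were *Arf1*, *Eif4a1* and *Rn7sk* under the highest probe set per gene. That setting could change only the named genes with several probe sets, which were these and *Gapdh*. The mean over mice of the ribosomal protein median, 7.75, was 9.23 with the highest probe set and 8.03 as a mean of genes, and for the mitochondrial genome, 13.44, it was 13.24 as a mean. Over genes above the floor only, the percentiles were 99.95 for the mitochondrial genome, 86.34 for the respiratory chain and 64.64 for ribosomal proteins, by construction lower than the 99.97, 91.25 and 77.35 over all genes. Of the 30 most even genes, 19 were shared after quantile normalization over the WT arrays, 16 after centring and 13 by the median absolute deviation, and without mice 3 and 4 together 14. The cause was not tested. Among the 500 highest genes 13 were shared, which by construction is every one of the 30 that ranks there. Without 1 WT mouse 22 to 25 were shared.

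For R6/2 minus WT, limma called 0 genes, SAM 59 and a replicate block 2. Profiles of equal replicate number correlated between -0.78 and 0.78, and 2 of 6 WT mice were closest to their own number. This cannot decide on pairing, because the pads also differed in lymphocyte and muscle genes. Without 1 mouse 0 to 23 genes were called: 23 without R6/2 mouse 4 and 1 each without WT mouse 1 or 3. Other settings called 0. The 6 mice limit every SD.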

Other observations

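Genes that give cells their position along the body were read in the WT pads. Of 36 Hox genes, 22 were above the floor and 0 at high level. *Hoxc8* was the highest, between 8.65 and 9.83 with a median of 9.23, followed by *Hoxc6* at 8.18 ± 0.34 (SD, n = 6). *Hoxc10* lay at 7.003 ± 0.43 (SD, n = 6). *Hoxb13* and *Hoxc11* lay at 4.71 and 4.58, below the floor. Genes of the circadian clock had a median of 7.72 over 17 genes. *Nr1d1* (REV-ERB alpha), a repressor in the clock, lay between 9.91 and 10.76 with a median of 10.40 and *Clock* between 9.74 and 10.27 with a median of 10.03, while *Npas2*, which can replace *Clock*, lay at 5.69 ± 0.62 (SD, n = 6).

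Early response genes, which rise within minutes of a stimulus, had a median of 7.28 over 23 genes. *Zfp36*, which destabilises messenger RNA, was the highest at 9.67 ± 0.25 (SD, n = 6). Mouse 1 was the highest in 9 of the 23 genes, with list medians of 7.67, 7.23, 7.14, 6.98, 6.79 and 7.27 in WT mice 1 to 6.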
